A study of Urocitellus parryii with 3 samples.

Results

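miR-101-3p was read in liver RNA of Urocitellus parryii, the arctic ground squirrel, as a mixture of forms that differ in their first base, their last base and the bases added after it. Its reads were selected by sequence: a distinct read belonged to miR-101-3p if it held 18 bases of the listed mature form, from the listed first base or from a start up to 2 bases before or after it. This rule found 5811 distinct reads of the 576915 in the table, and they stood for 134420 sequenced reads. miR-101-3p was itself singled out because variation at its ends had been seen in these same libraries, so the shares below are a description of the libraries and come with no test.

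The study compared 3 stages of the yearly cycle with 1 Illumina small RNA library each, made from liver RNA mixed in equal amounts over the animals of a stage. The post-reproduction library pooled 6 animals outside hibernation, housed with 16 h of light and 8 h of dark. The early arousal and late torpor libraries pooled 4 animals each, kept with 4 h of light and 20 h of dark through at least 4 torpor bouts, with implanted transmitters that followed body temperature to stage torpor and arousal. Sampling on day 4 of a bout is recorded for late torpor, and no time is given for early arousal. Isoflurane anaesthesia is named for the post-reproduction animals alone, so it cannot be told apart from the stage. No genetic change is named for any stage, and pooling hides the spread between animals. The post-reproduction library held 5614441 placed reads, that of early arousal 5611673 and that of late torpor 5860476, and values below keep this order. Every read in the table is 30 bases long and runs through the small RNA into the 3′ adapter. The most read family of start positions took 75.0%, 72.5% and 76.4% of the placed reads. The named marker miRNAs of hepatocytes and blood cells were not evaluated, because no table of miRNA names was used here.

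A microRNA is a short RNA that guides an Argonaute protein to messenger RNAs, mostly through its seed, bases 2 to 8 counted from its first base. For a miRNA of the 3p arm the first base is set by the cut that Dicer makes in the hairpin, so a start moved by 1 base presents another seed. The last bases can be trimmed, and terminal nucleotidyltransferases can add A or U (read as T) that the genome does not hold. miR-101 is abundant in mammalian liver and is known as a repressor of EZH2, the methyltransferase of Polycomb repressive complex 2.

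The 5 start forms are shown first because the seed that each presents is what the comparison of starts turns on. Each is drawn to the listed last base, with its seed in capitals, as the placed reads on the plus strand of scaffold 13560 spell it.
start 2 before: gGTACAGTactgtgataactgaa
start 1 before: gTACAGTActgtgataactgaa
listed start: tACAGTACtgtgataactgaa
start 1 after: aCAGTACTgtgataactgaa
start 2 after: cAGTACTGtgataactgaa
The listed form covers bases 72077 to 72097 of that scaffold, counted from 1. It is the usual mammalian form from general knowledge and was checked against no miRNA database. The placed letters around it matter for what counts as a tail, and here capitals mark the listed 21 bases from 72077 on.
placed letters of the locus: ggTACAGTACTGTGATAACTGAAggatg
The bases after the listed last base are G, G and A, so an A directly after base 21 is not in the scaffold. Bases 20 and 21 are both A, so an A added to a form that ends at base 19 or 20 cannot be told apart from the scaffold's own A. No annotation of this scaffold was used here, so no gene, exon or intron is given. All member reads were placed at this locus and none at a second position. Tails were thus told from genome bases by this scaffold alone. A copy of the hairpin outside the placed positions could not be seen.

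Reads were split nearly evenly between the listed start and the start 1 base before it, in every stage. The start 1 before had 23220, 23895 and 20572 reads, and the listed start had 23469, 22256 and 20351. As a share of all miR-101-3p reads the start 1 before took 49.5% (exact binomial 95% interval 49.05 to 49.96), 51.5% (51.04 to 51.95) and 50.0% (49.55 to 50.52). Here and below intervals cover counting error only, since reads copied by PCR without molecular identifiers are not independent molecules. Per read of the listed start there were 0.989 (0.972 to 1.008), 1.074 (1.054 to 1.093) and 1.011 (0.991 to 1.031) reads of the start 1 before. Early arousal was the one library in which the longer start led beyond counting error. With a single library per stage this difference of about 2 percentage points cannot be set against the spread between animals or libraries.

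The other starts were rare. The start 1 after the listed base had 162, 197 and 151 reads, which is 0.345%, 0.425% and 0.367%, with overlapping intervals. The start 2 after had 52, 53 and 40 reads. The start 2 before had 0, 1 and 1 reads, at or under the floor of 3 counts, which corresponds to 0.547, 0.455 and 0.587 CPM (read counts scaled to libraries of equal size). Shifted starts thus fell almost wholly on 1 side: 49.5%, 51.5% and 50.0% of reads began before the listed base, against 0.456%, 0.539% and 0.465% after it.

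**Figure D1:**
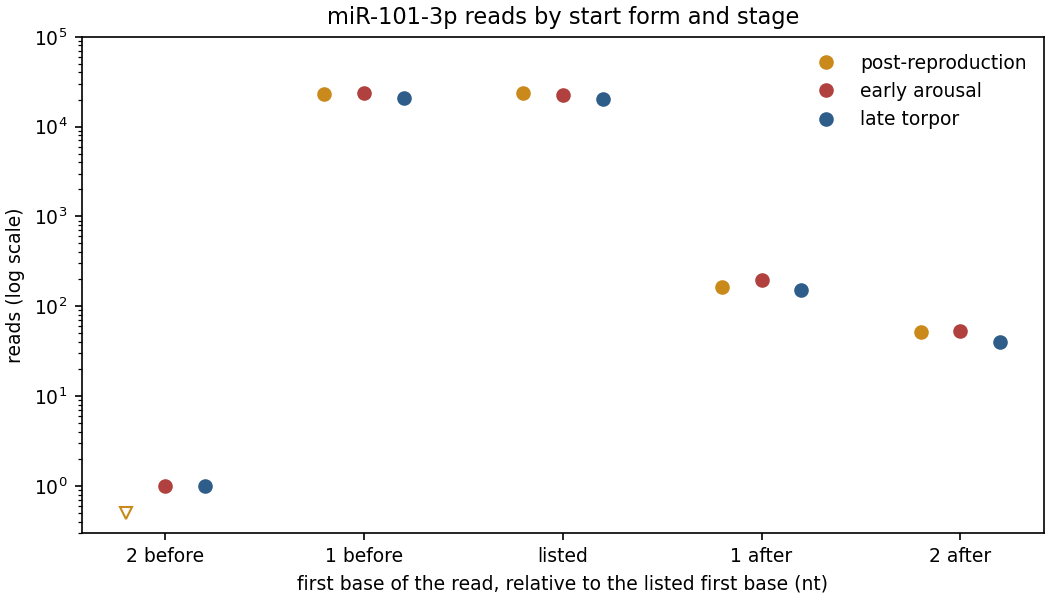
Reads of each miR-101-3p start form on a log axis, 1 point per library, by the position of the first base relative to the listed one. The start 1 before and the listed start lie together at 20351 to 23895 reads, the later starts lie at 40 to 197, and the open triangle marks the 0 reads of the start 2 before in post-reproduction, drawn at an arbitrary height.

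An even split between neighbouring starts was unusual among the abundant small RNAs of these libraries. Start groups, reads that share their first 18 bases, were gathered into families around the most read start, each with the starts 1 or 2 bases to either side. Of the 56 families with at least 1000 inserts in each library, an insert being a read up to its adapter, the median share of reads at starts other than the leading one was 0.229%, 0.234% and 0.216%. The miR-101-3p family, whose leading start over all libraries is the one 1 before, had 50.3%, 48.1% and 49.8%. A single family exceeded it in each library, with 60.4%, 63.2% and 60.5%. This ranking describes a miRNA that was picked on its variable ends and is not a test.

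The share of other starts differed little between the libraries. In 3.57% of the families the share of other starts differed by at least 2 percentage points between late torpor and post-reproduction. That figure was 14.3% between early arousal and post-reproduction and 7.14% between early arousal and late torpor. With a minimum of 300 inserts, which takes in 104 families, it was 12.5%, 18.3% and 13.5%. miR-101-3p differed by -0.496, -2.23 and -1.73 points in these comparisons, so only the early arousal to post-reproduction difference passed 2 points, as it did in 7 other families. The comparisons share libraries in pairs. The limit of 2 points was set after values had been seen.

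A few exact molecules made up most of miR-101-3p. The 3′ adapter was found in 97.5%, 98.1% and 98.3% of member reads, which left 45732, 45526 and 40402 inserts, and the 8 inserts most frequent over the pooled libraries held 88.5%, 86.8% and 87.9% of them. They are shown because together they are most of the miR-101-3p in the libraries, again with the seed in capitals. The rarer starts, the mixed tails and most T tails lie outside them.
1 before to base 20: gTACAGTActgtgataactga
listed to base 20: tACAGTACtgtgataactga
1 before to base 21: gTACAGTActgtgataactgaa
listed to base 21: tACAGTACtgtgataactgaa
listed to base 21 plus A: tACAGTACtgtgataactgaaa
1 before to base 21 plus A: gTACAGTActgtgataactgaaa
listed to base 22: tACAGTACtgtgataactgaag
listed to base 21 plus T: tACAGTACtgtgataactgaat
The ninth over the pooled libraries, gTACAGTActgtgataactgat, had 599, 479 and 503 inserts against 545, 558 and 493 of the eighth, so it was the more frequent of that pair in post-reproduction and late torpor.
The most frequent molecule began 1 base early and lacked the last listed base. It held 11911, 12004 and 10580 inserts, or 26.1% (25.6 to 26.5), 26.4% (25.96 to 26.8) and 26.2% (25.8 to 26.6), with overlapping intervals. The same molecule from the listed start was next, with 10533, 8956 and 8336 inserts. Its share of 23.03% (22.7 to 23.4) in post-reproduction lay above the 19.7% (19.3 to 20.0) of early arousal and the 20.6% (20.2 to 21.03) of late torpor. From the start 1 before, the molecule that ends at base 21 held 14.1%, 14.2% and 13.8%. The full listed form was the fourth most frequent, with 5564, 4952 and 4555 inserts, 12.2% (11.9 to 12.5), 10.9% (10.6 to 11.2) and 11.3% (11.0 to 11.6). Most miR-101-3p inserts in each library thus differed from the listed sequence at one end or both.

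Insert lengths followed from these molecules. Inserts of the start 1 before peaked at 21 nt, with 55.0%, 54.1% and 54.6%, followed by 22 nt with 32.6%, 31.0% and 31.3%. Those of the listed start peaked 1 base lower, at 20 nt, with 47.1% (46.5 to 47.8), 43.1% (42.5 to 43.8) and 43.2% (42.5 to 43.9). Listed-start inserts of 22 nt took 20.3%, 24.8% and 24.98%. Post-reproduction therefore had more 20 nt and fewer 22 nt inserts of the listed start than the other 2 libraries, whereas the start 1 before showed no shift of that size. With the adapter required without mismatch the 20 nt share of the listed start was 47.4%, 43.2% and 43.6%. Inserts of 19 nt or less were 1.82% (1.70 to 1.95), 1.71% (1.60 to 1.84) and 1.62% (1.503 to 1.752) over all forms, with overlapping intervals. Inserts of 18 nt numbered 37, 28 and 28 for the start 1 before and 44, 38 and 31 for the listed start. Those of the start 1 before met the rule of 18 listed bases because base 18 is T, as is the first adapter base. Inserts shorter than 18 nt were not searched for. Among the 56 families the median share of inserts of 19 nt or less was 0.526%, 0.4998% and 0.485%. In 9, 10 and 8 families this share was larger than in miR-101-3p.

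**Figure D2:**
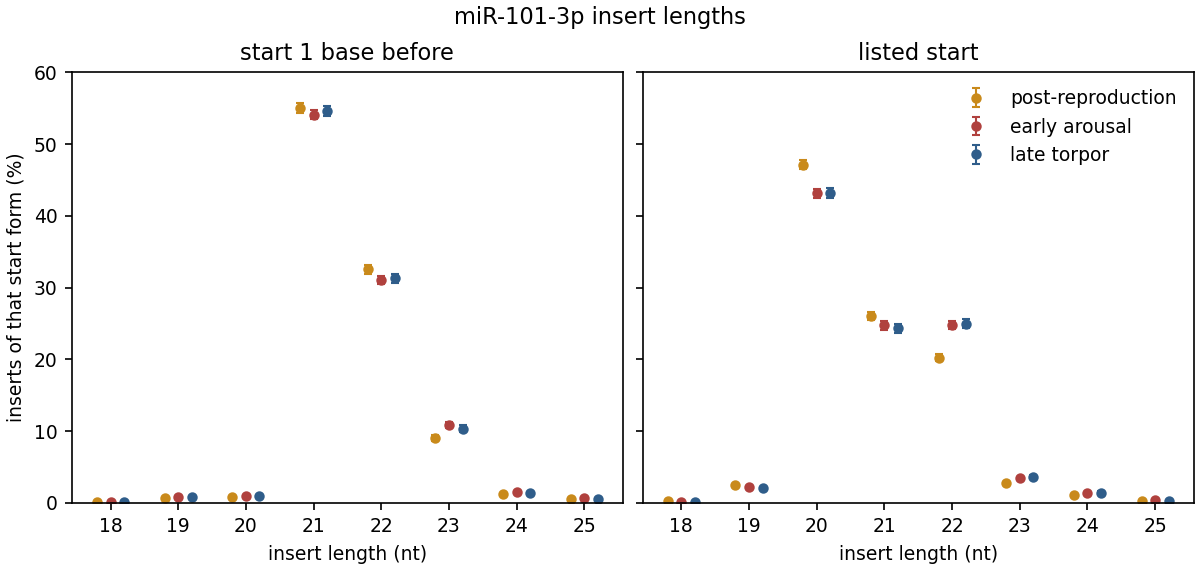
Insert lengths of the start 1 before (left) and the listed start (right) as a percent of the inserts of that form, with exact binomial 95% intervals. The start 1 before peaks at 21 nt near 55% in all 3 libraries, and the listed start peaks at 20 nt, at 47.1% in post-reproduction against 43.1% and 43.2% in early arousal and late torpor.

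The placed part of the inserts ended mainly at base 20 or 21, whichever base they began at. Among inserts without a tail, those ending at base 20 outnumbered those ending at base 21 by 1.85 (1.80 to 1.91), 1.86 (1.81 to 1.92) and 1.90 (1.84 to 1.96) for the start 1 before. For the listed start the ratios were 1.89 (1.83 to 1.96), 1.81 (1.75 to 1.87) and 1.83 (1.77 to 1.90), so the intervals of the start forms overlapped in every library. The forms parted at base 22, the scaffold G after the listed end. It was the last placed base in 6.66% (6.34 to 6.99), 7.49% (7.15 to 7.85) and 8.74% (8.35 to 9.14) of listed-start inserts. Of the start 1 before only 11, 20 and 18 inserts reached it, 0.0489%, 0.0854% and 0.0893%. Inserts with the extra 5′ base thus seldom carried the G at the 3′ end. When the adapter was required without mismatch the same shares were 6.50%, 7.58% and 8.79% against 0.0447%, 0.0901% and 0.0892%. Listed-start inserts whose placed part ended at base 18 were 0.700% (0.596 to 0.816), 1.78% (1.60 to 1.96) and 0.743% (0.629 to 0.872), higher in early arousal than in the other 2 libraries. Those without a tail were 0.1912%, 0.1738% and 0.1545%, with no rise in early arousal. The excess thus lay in inserts with unplaced letters after base 18, where a mismatch was not told apart from a tail.

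**Figure D3:**
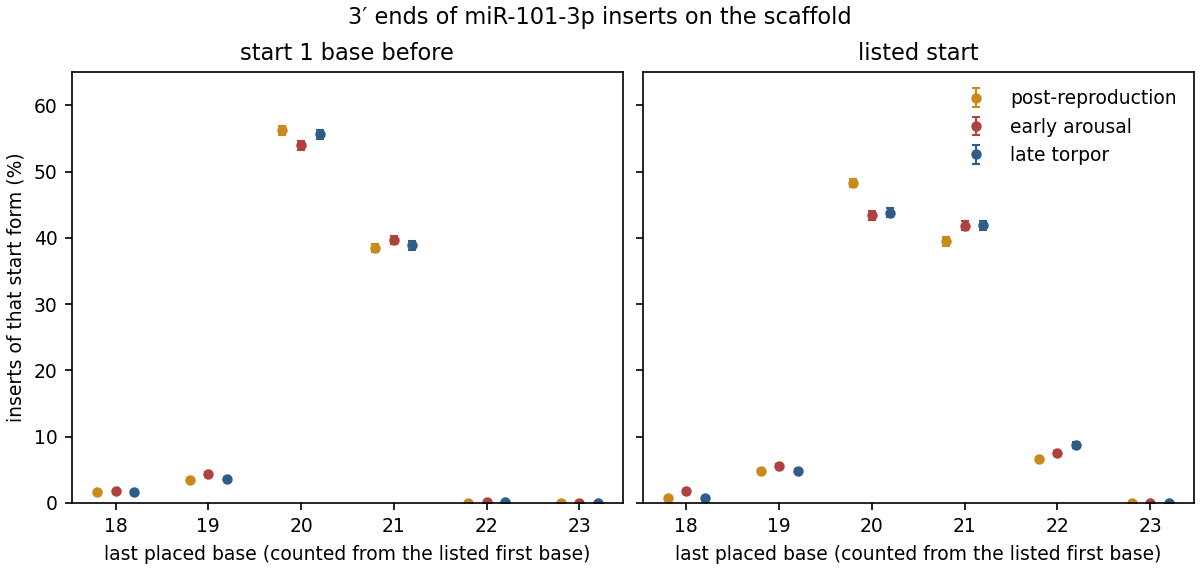
Last placed base of miR-101-3p inserts, counted from the listed first base, as a percent of the inserts of the start 1 before (left) and of the listed start (right), with exact binomial 95% intervals and with tailed inserts counted at the base before the tail. Both forms end mainly at bases 20 and 21, and the end at base 22 holds 6.66% to 8.74% of the listed start but under 0.1% of the start 1 before.

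A tails were the most frequent addition and were more frequent in both hibernation-season libraries. They were found on 5413, 6774 and 5849 inserts, which is 11.8% (11.5 to 12.1), 14.9% (14.6 to 15.2) and 14.5% (14.1 to 14.8). The interval of post-reproduction overlapped neither of the others, and those of early arousal and late torpor overlapped. Most were a single A, on 10.1%, 12.6% and 12.4% of inserts. Tails of 2 A were on 1.24%, 1.56% and 1.46%, and tails of 3 or more on 0.472%, 0.692% and 0.592%. These lengths count unplaced A alone, so A added to an end at base 19 or 20 was counted short or missed. A tails after base 21 were on 11.06%, 13.92% and 13.54% of inserts. Another 60, 145 and 53 inserts had one directly after base 18. There a mismatch followed by the scaffold's own A was not told apart from a longer A tail. The adapter was found without mismatch in 87.9%, 93.1% and 93.2% of member reads, lowest in post-reproduction too. Requiring such an adapter left the A tail shares at 11.8%, 15.1% and 14.7%.

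The listed start carried more A tails than the start 1 before in each library. Where the placed part reached base 21, the position after which an added A can be recognised, 31.7% (30.7 to 32.6), 38.6% (37.6 to 39.6) and 38.8% (37.7 to 39.8) of listed-start inserts had an A tail. Inserts of the start 1 before had one on 24.8% (23.8 to 25.7), 29.6% (28.6 to 30.5) and 27.7% (26.7 to 28.7). Both forms were thus lowest in post-reproduction, and the gap between the forms was wider than either interval. After base 22 the listed start had 17.2%, 16.6% and 17.3%, with no order among the stages beyond counting error. The start 1 after, with only 160, 195 and 145 inserts, had an A tail on 28.8%, 33.9% and 29.0% of all its inserts.

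T tails after base 21 separated the start forms more sharply than the stages. They stood on 558, 574 and 504 listed-start inserts, 6.14% (5.66 to 6.66), 6.28% (5.79 to 6.79) and 6.00% (5.50 to 6.53). On the start 1 before there were 49, 56 and 61, 0.566% (0.419 to 0.748), 0.604% (0.456 to 0.783) and 0.778% (0.595 to 0.998). After base 20 they stood on 3.47% (3.14 to 3.83), 3.299% (2.95 to 3.68) and 3.301% (2.94 to 3.70) of listed-start inserts. On the start 1 before they stood on 4.80% (4.43 to 5.18), 3.85% (3.53 to 4.20) and 4.60% (4.219 to 5.004), higher beyond counting error in post-reproduction and late torpor, whereas the intervals overlapped in early arousal. After base 22 the listed start had T tails on 87, 160 and 152 inserts, 5.68% (4.57 to 6.95), 9.77% (8.37 to 11.3) and 8.67% (7.40 to 10.1), lowest in post-reproduction. Over all forms and ends T tails were on 5.19%, 5.69% and 5.51% of inserts, tails of mixed letters on 2.46%, 3.23% and 2.50%, and tails of C or of G each on under 0.3%. The adapter itself begins with T, so an insert read 1 base too long can appear as a T tail, and its part in these shares was not tested.

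**Figure D4:**
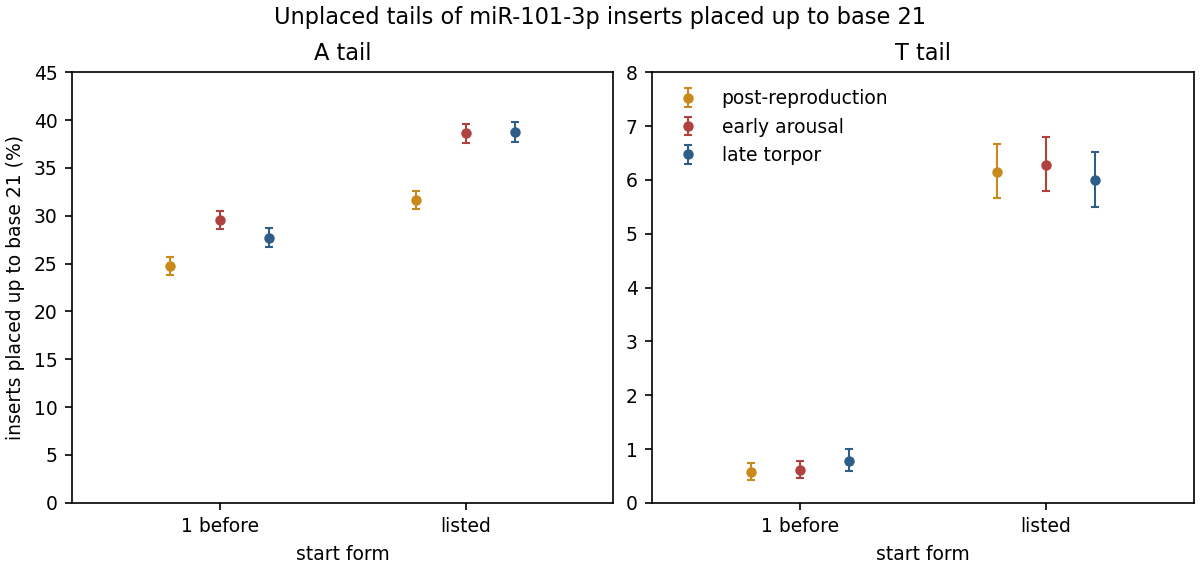
A tails (left) and T tails (right) as a percent of miR-101-3p inserts placed up to base 21, by start form and library, with exact binomial 95% intervals. A tails are lowest in post-reproduction for both start forms, and T tails stay near 6% for the listed start and under 0.8% for the start 1 before.

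The difference in A tails was large beside other families but not singular. Only A not placed on the scaffold was counted, so how far a tail can be recognised depends on the bases after each family's ends. The ranks and differences below were not adjusted for this. Over the 56 families the median A tail share was 4.43%, 5.18% and 5.56%, and 12, 7 and 7 families lay above miR-101-3p, which as a family had 11.8%, 14.8% and 14.4%. Between late torpor and post-reproduction 10.7% of families differed by at least 2 points, 4 upward and 2 downward. miR-101-3p, at 2.65 points, was exceeded by 2 with a larger share in late torpor and by 1 with a smaller one. Between early arousal and post-reproduction 12.5% did, and miR-101-3p, at 2.995 points, was exceeded by 3, all higher in early arousal. Between early arousal and late torpor 1.79% did, or 10.6% with a minimum of 300 inserts, and miR-101-3p differed by 0.342 points. Other families with frequent A tails mostly leaned the same way: of 28 with a mean share of at least 5%, 21 were higher in both hibernation-season libraries than in post-reproduction and 3 were lower in both. Their median difference was 0.731 points in early arousal and 0.971 in late torpor. Of the 27 other families under that limit, 7 were higher in both and 10 lower in both. The limit of 5% was set after values had been seen.

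**Figure D5:**
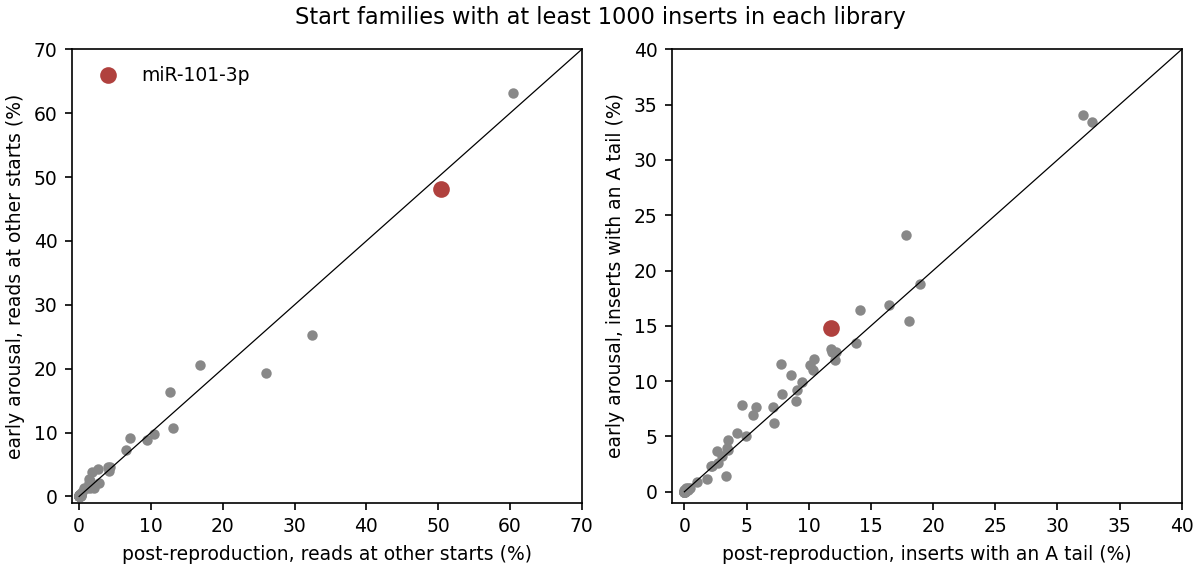
Share of reads at starts other than the leading one (left) and share of inserts with an A tail (right) for the 56 start families with at least 1000 inserts in each library, post-reproduction on the x axis and early arousal on the y axis, both in percent, with the line of equal shares. The miR-101-3p family has the second largest share of other starts and lies 2.995 points above the line for A tails.

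The level of miR-101-3p differed little between stages, and its order depended on the scaling. All forms together had 46903, 46402 and 41115 reads, or 0.835%, 0.827% and 0.702% of the placed reads, the fourth most read of 3608 families. With trimmed mean of M-values (TMM) factors over start groups these were 8557, 7038 and 8047 CPM. On that scale late torpor stood at 0.940 (0.928 to 0.953) of post-reproduction, early arousal at 0.823 (0.812 to 0.833) of post-reproduction, and early arousal at 0.875 (0.863 to 0.886) of late torpor. As log2 ratios these are -0.09, -0.28 and -0.19. Scaled to all placed reads the log2 ratios were -0.25, -0.01 and 0.24, so early arousal lay above late torpor, and with TMM factors over the 56 families they were -0.03, 0.03 and 0.06. Of the 3 comparisons, late torpor against post-reproduction alone kept its sign under every scaling tried, between -0.25 and -0.03. In bulk tissue fewer cells of a type and less RNA per cell cannot be told apart.

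Differences larger than these were common in these libraries. Among start groups with at least 100 reads over both libraries, 49.8% differed at least 1.5-fold between late torpor and post-reproduction, 44.3% between early arousal and post-reproduction and 37% between early arousal and late torpor. Among the 56 families 17.9%, 25% and 14.3% did. Reads that differ by 1 base from a more abundant read count as start groups of their own. The A15G and C17G reads described below are examples, and how many groups are such variants was not counted. No miR-101-3p form with at least 40 reads in each library reached 1.5-fold. The start 1 before had 4236, 3624 and 4026 CPM and the listed start 4282, 3376 and 3983 CPM, so on the TMM scale each stood lower in early arousal, at 0.856 (0.840 to 0.871) and 0.788 (0.774 to 0.803) of post-reproduction. That order between stages is the one that turned with the scaling, whereas the gap between both forms does not depend on it.

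The seeds of the start forms were rare elsewhere in the libraries. Start groups outside miR-101-3p that present TACAGTA, the seed of the start 1 before, summed to 539 reads, of which 325 came from gtacagtactgtgataag. Those that present ACAGTAC, the listed seed, summed to 846 reads, of which 574 came from tacagtactgtgatgact. Both of these leading groups differ from miR-101-3p itself by 1 base within the shared bases, C17G for the first and A15G for the second, counted from the listed first base. Reads with 1 such mismatch numbered 512, 841 and 281 in all, with A15G on 193, 324 and 57 of them and T18A, on the start 1 before, on 65, 212 and 42. T18C, with 29, 91 and 25 reads, and T18G, with 21, 43 and 12, both on the start 1 before, were also highest in early arousal. C17G was highest in post-reproduction, with 125, 108 and 89 reads, as was the rarer G10T, with 22, 13 and 20 on the listed start. Single mismatches thus had no order shared by all, though those named here other than C17G and G10T were highest in early arousal. With bases 2 to 7 alone, ACAGTA, other start groups summed to 1941, 1584 and 1452 reads, mostly from tacagtagtctgcacatt with 3592 over all libraries. Almost all RNA read with either full seed in these libraries was thus miR-101-3p.

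The other arm of the hairpin was nearly absent at this locus. Within 100 bases of the locus 2 reads, both from early arousal, covered the stretch that begins 37 or 36 bases before the listed first base, where the partner arm would lie. They are shown because they share a last base, 72062, and differ at the start.
partner read from 72040: tcagttatcacagtgctgatgct
partner read from 72041: cagttatcacagtgctgatgct
That is 0.00149% (0.00018 to 0.00538) of the reads of both arms, or 67210 reads of the 3p arm per read of its partner. Partner-arm reads placed elsewhere were not counted. Another 2 reads, both from late torpor, began further upstream, at base 72015.

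The start groups whose stage pattern lay closest to that of miR-101-3p were found by the distance between their log2 ratios of late torpor and of early arousal to post-reproduction, over 162 groups with at least 1000 reads. The nearest was tccctgagaccctaactt, at a distance of 0.055, with 301, 242 and 292 CPM. It was followed by tggaagactagtgatttt, at 0.072, with 387, 335 and 367 CPM, and by acagtagtctgcacattg, at 0.075, with 2255, 1817 and 2021 CPM. All of them had their lowest CPM in early arousal on the TMM scale, which follows from choosing them by nearness to miR-101-3p. The likeness rests on 3 libraries only, and 1 scaling applies to all groups alike.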

How the data were processed

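Small RNA of 18 to 30 nt was cut from a gel with 10 µg of pooled liver RNA per stage and amplified by 15 cycles of PCR, per the labels' protocols. The authors deposited 1 table of scaffold positions whose entries join a read, its whole-number read count and its stage, per the file headers. The counts are not scaled. It has 866747 lines on 61932 scaffolds and 4218154 entries. Capitals mark the placed part of a read, at least 18 bases. Which aligner, genome build and read filters were used is not given in the sources used here.

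A read placed at several positions was counted once per stage. miR-101-3p and the lists used here were chosen with earlier results of these data known. The first 5 bases of the adapter given in the labels were searched after 18 to 25 bases of each read, allowing 1 mismatch. A tail is what lies between the placed part and the adapter, and an A tail is made of A alone. Forms before the listed base had to hold all 18 first listed bases after the added ones.

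Levels are CPM, read counts scaled with TMM factors of 0.976, 1.175 and 0.872, computed by own code over 820 start groups (30% trimmed on ratio, 5% on abundance). Start groups that differ by 1 base from a more abundant one were neither merged with it nor left out. Placed reads totalled 5614441 (post-reproduction), 5611673 (early arousal) and 5860476 (late torpor). A count of 0 was read as under 3 counts. Each stage has 1 library, so nothing was tested and no p-value is printed. Shares have exact binomial (Clopper-Pearson) 95% intervals and ratios exact conditional binomial ones. The genes named follow a rule: miR-101-3p by start, length and tail, reads within 100 bases, start groups that share a seed, and the 3 start groups of at least 1000 reads with the nearest pattern. miR-144-3p and the marker miRNAs of cell types were listed but not evaluated, since no table used here pairs miRNA names with sequences. Alternatives covered scaling, mismatches, the adapter search, the length limit and the start forms. The code was tested on simulated data. Python 3.11.15, numpy 2.4.6, scipy 1.17.1 and matplotlib 3.10.9 were used.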

Additional observations from a re-analysis of the deposited data

Results flagged for a closer look

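Reads that began 3 bases after the listed first base lie outside the rule for miR-101-3p and enter no share above. The post-reproduction library had 10 of them, early arousal 16 and late torpor 18, over the limit of 3 counts in each library. The longest placed part among them was 19 nt.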

How the results depend on the processing

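Shares of shifted starts stayed within their intervals with 1 mismatch accepted, with reads of the locus alone and with distinct reads of at least 2 reads alone. Of the 60 alternative values, 27 were the same as reported, 30 moved and 3 reversed. No paired analysis was possible because each stage has 1 library and the labels give no replicate numbers.

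Log2 level ratios are given for late torpor over post-reproduction, early arousal over post-reproduction and early arousal over late torpor, reported as -0.09, -0.28 and -0.19. Scaled to placed reads they were -0.252, -0.0148 and 0.237, the last reversed. TMM over families, chosen after seeing the data, gave -0.0275, 0.0334 and 0.0609, the last 2 reversed. TMM with no minimum beyond 1 read gave -0.15 for late torpor over post-reproduction and -0.14 for early arousal over late torpor, and median-of-ratios scaling gave -0.11 and -0.30 for both comparisons with post-reproduction. The listed start alone gave -0.34 and -0.24 for both comparisons of early arousal. Inserts identical to the listed form gave -0.19, -0.43 and -0.25. Scaling to placed reads shifts every log2 ratio by -0.16, 0.27 and 0.43, and TMM over families by 0.06, 0.32 and 0.25.

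In the order post-reproduction, early arousal and late torpor, inserts of 19 nt or less were 2.05%, 1.91% and 1.78% with 8 adapter bases required, 2.61%, 2.34% and 2.21% for the listed start alone, and 26.03%, 22.96% and 23.6% with a limit of 20 nt. A tails were 13.8%, 17.9% and 17.9% for the listed start alone and 6.39%, 8.48% and 8.34% with 8 adapter bases, which a 30-base read holds only for inserts up to 22 nt. With at least 300 inserts per library the share of families past 2 points was 12.5% and 13.5% for other starts, late torpor minus post-reproduction and early arousal minus late torpor, and 10.6% for A tails, early arousal minus late torpor. The cause of the remaining moves was not tested. Depth limits the rare starts and the partner arm, not the main forms.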
